A study of Mus musculus with 6 samples.

Results

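The osteogenic factors and the RANK-RANKL pair were described here by 9 genes, taken by name from the 23107 genes of the deposited count table and read in all 6 libraries. They were Runx2, Sp7 and Dlx5 (transcription factors of bone-forming cells), Ibsp, Bglap, Phex and Dmp1 (products of osteoblasts and osteocytes), and Tnfrsf11a (RANK) with its ligand Tnfsf11 (RANKL). The libraries were made from aortic valve tissue of outbred mice aged 4 months, 3 from controls and 3 from caAcvr1:Nfatc1Cre mutants. Mutants carried both a transgene for constitutively active Acvr1, a BMP type I receptor, and a Cre knocked into the Nfatc1 locus, which removes the block on the transgene. The labels call the controls wild type, whereas the study's methods allow mice with neither allele or with only one of them, so a control library may hold either allele alone. In this model Cre acts from embryonic life in the endocardium, in mesenchyme derived from it, in interstitial cells and in cells where leaflet and wall join (not of endocardial descent), while cardiac and smooth muscle are spared. The sources used here do not say how many mice went into a library, so p-values measure the spread between libraries.

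In bone, Dlx5 and Runx2 act early and Sp7 (Osterix) acts downstream of Runx2 to set the osteoblast fate. Ibsp (bone sialoprotein) and Bglap (osteocalcin) are laid down in the mineralizing matrix, while Dmp1 and the peptidase Phex belong to osteocytes and restrain the phosphate hormone Fgf23. RANKL on osteoblasts, stromal cells or T cells binds RANK on monocyte-derived precursors and drives osteoclast formation, and the secreted decoy receptor osteoprotegerin (Tnfrsf11b) blocks this contact. Calcified human aortic valves are known to switch on part of this program, which is why these genes are of interest in valves with activated Acvr1.

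Promoter sequences in the RefSeq table, which is of the build GRCm38.p6, existed for 7 of the 9 genes. A pair is shown, of the gene with the highest level and of a near-silent bone gene. Each run is the 250 bases before the gene start, 5′ to 3′ on the strand of the gene. For Bglap (chr3:88384467-88384716, minus strand) the capitals mark the Runx letters TGTGGT or, on the other strand, ACCACA. For Tnfrsf11a (chr1:105780473-105780722, plus strand) they mark the GC box letters GGGCGG or CCGCCC.
Bglap: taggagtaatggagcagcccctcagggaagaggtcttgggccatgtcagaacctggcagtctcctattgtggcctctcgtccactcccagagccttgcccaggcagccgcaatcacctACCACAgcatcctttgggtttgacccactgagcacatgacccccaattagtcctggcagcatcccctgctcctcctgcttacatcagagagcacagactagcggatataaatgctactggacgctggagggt
Tnfrsf11a: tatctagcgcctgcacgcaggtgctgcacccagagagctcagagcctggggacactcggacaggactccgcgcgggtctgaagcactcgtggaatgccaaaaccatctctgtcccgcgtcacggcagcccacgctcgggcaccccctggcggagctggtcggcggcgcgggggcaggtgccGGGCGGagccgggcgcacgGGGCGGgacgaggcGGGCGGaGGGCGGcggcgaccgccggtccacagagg

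In windows of 300 bases (250 before and 50 after the start), the Runx letters stood in 3 of the 8 windows of these genes (Runx2, Bglap and 1 of the 2 windows of Dmp1), against 16.8% of all 32851 promoter windows. The match in Bglap begins 132 bases before the start. The GC box letters stood in the window of Tnfrsf11a alone, 5 times, against 35.7% of all windows with at least 1. The homeodomain letters TAATTA, which Dlx proteins can bind, stood in 0 of the 8 windows and in 5.29% of all. These matches describe letters only and say nothing of binding.

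Levels were given as CPM (counts relative to library size, scaled with the TMM factors of edgeR), and library totals ran from 46180667 to 55728852 fragments in controls and from 32218345 to 53129462 in mutants. As a check of the tissue, markers of valve interstitial cells and fibroblasts summed to 11162 to 14528 CPM and endothelial markers to 1039 to 1586 CPM. Neighbouring tissue was present too, with cardiac muscle markers at 10217 to 33104 CPM and red blood cell markers at 1318 to 10280 CPM. Smooth muscle markers summed to 13172 CPM in control replicate 2 and to 5781 to 5976 CPM in the other controls, and to 2198, 5511 and 5897 CPM in mutant replicates 1, 2 and 3. All 5 of these markers had a fitted log2 fold change below 0 (median -0.88), 3 with every mutant below every control (4.83% of all genes tested) and 1 at an unadjusted p under 0.05 (1.86% of all genes tested were lower), with 0 at an adjusted one in edgeR. Chondrocyte markers summed to 125 to 163 CPM in the controls and 140 to 217 CPM in the mutants, led in counts by Hapln1 and Col11a2. Matn1 had at most 1 count in any library. Most of each sum was Hapln1 (80.8 to 113 CPM in controls, 108 to 173 CPM in mutants). Of the 7 chondrocyte markers tested, 5 had a fitted log2 fold change above 0 and 2 below (median 0.067). Hapln1 was at 0.47, Col11a2 at -0.25 and Acan at -1.09. Control replicate 1 and mutant replicate 1 held almost no Y-linked RNA (Ddx3y at 0.261 and 0.348 CPM, against 76.9 to 104 CPM elsewhere). Mutant replicates 2 and 3 held both Ddx3y and Xist (19.7 and 11.7 CPM), where control replicates 2 and 3 had Xist at 0.297 and 0.631 CPM. Acvr1 is listed once, so its transgene cannot be counted apart, and its level overlapped between groups (49.1 to 67.4 CPM in controls, 49.9 to 57.9 CPM in mutants).

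The counts of these genes were low, apart from Tnfrsf11a. Of the 54 values (9 genes in 6 libraries), 33 reached 10 counts and 5 were 0. Bglap and Dmp1 were under 10 counts in all 6 libraries, and Tnfsf11 was under 10 in 4. Sp7 fell below 10 counts in control replicate 3 and mutant replicate 3, Ibsp in mutant replicates 2 and 3, and Dlx5 in mutant replicate 3. Runx2, Tnfrsf11a and Phex had at least 10 counts everywhere. Tnfrsf11a alone made up 80.2% of the 6934 fragments assigned to the 9 genes.

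Per length of exon, the order of the genes was led by Tnfrsf11a. Its level in controls was 4.01 ± 1.503 CPM per kilobase (SD, n = 3), and over all libraries 52.8% of the 18241 genes with a length and a count lay at or below it. Phex followed at 0.545 ± 0.294, Dlx5 at 0.409 ± 0.195 and Ibsp at 0.285 ± 0.245 CPM per kilobase in the controls (SD, n = 3). The lowest library of Tnfrsf11a, at 1.48 CPM per kilobase, lay above the highest of Phex, at 0.883. Every other pair of neighbours in the order overlapped in range over the 6 libraries. Runx2 stood at 0.104 ± 0.0266, Sp7 at 0.0878 ± 0.0894, Bglap at 0.0639 ± 0.0306, Tnfsf11 at 0.0481 ± 0.0502 and Dmp1 at 0.0434 ± 0.0253 CPM per kilobase (SD, n = 3). These 5 genes lay in the range where 11.4% to 17.7% of genes are at or below.

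The comparison of mutants with controls asks whether activated Acvr1 raised the osteogenic program in the adult valve. None of the genes passed the test in either direction. Of the 9 genes, 6 had at least 10 counts in at least 3 libraries and were tested with the quasi-likelihood test of edgeR. Of these, 0 had an adjusted p under 0.05, against 0% of the 15354 genes tested, and DESeq2 called 0 of the 6, against 0.169% of all genes tested (26). At an unadjusted p under 0.05 there was 1, Phex, where 3.45% of all genes tested were. Of the 6 tested genes, 6 had a fitted log2 fold change below 0 (median -0.85), as had 47.8% of all genes tested (median 0.0097). Sp7 was above 0 in limma-voom, with a replicate block and in the fits without control replicate 1 or mutant replicate 3. In 2 of the 9 genes, Phex and Ibsp, all mutants lay below all controls, as in 4.83% of the genes tested, and in 0 genes did all mutants lie above, where 4.04% of the genes tested did. Groups without overlap in either direction were found in 8.87% of the genes tested.

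**Figure D1:**
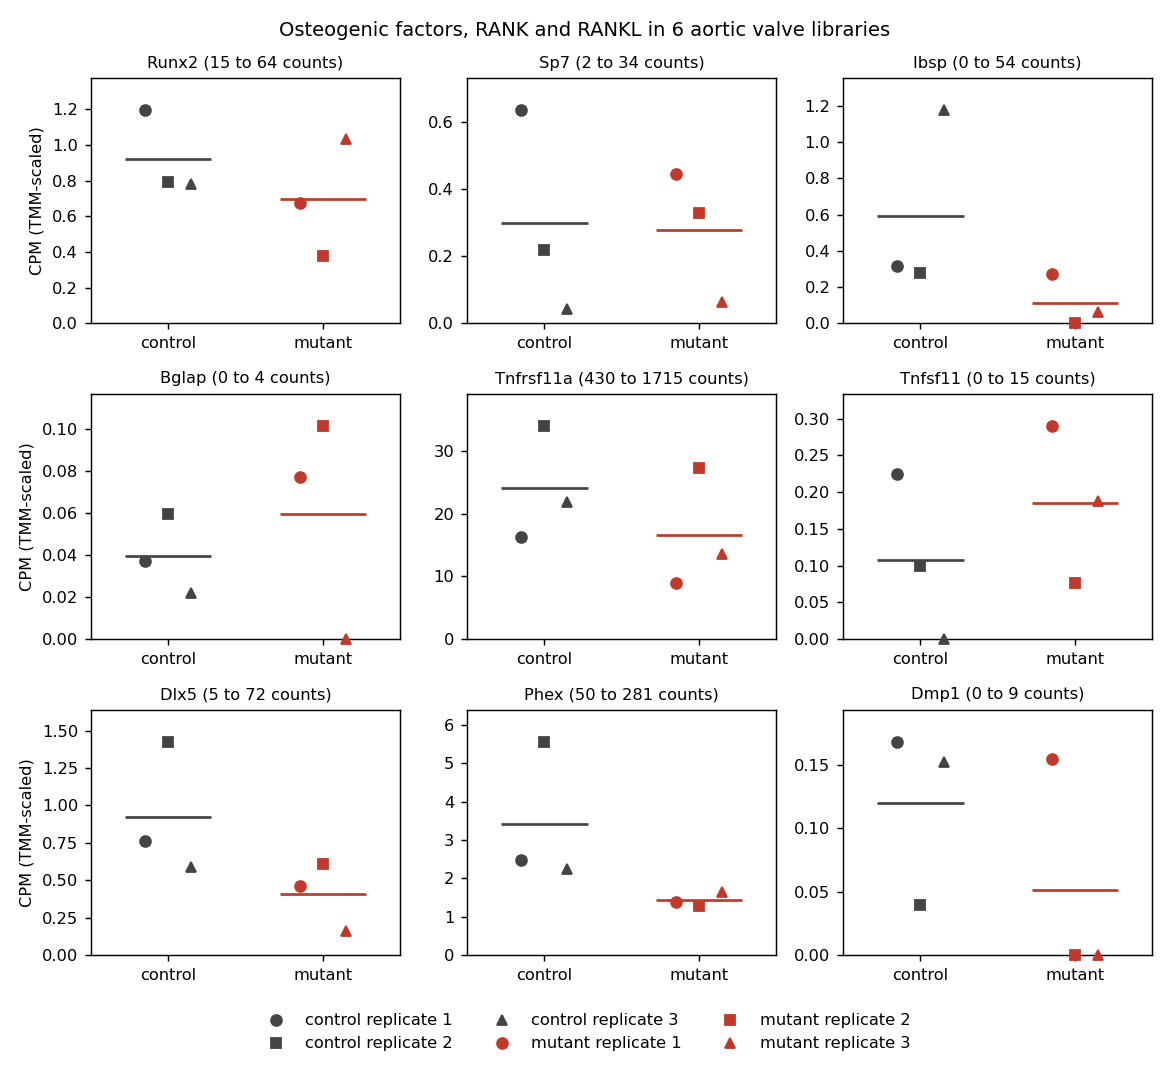
Level of each of the 9 genes in CPM (vertical axis, linear from 0, scale set per gene) in the control and mutant libraries, with symbols for the replicate numbers and lines for the group means of 3 libraries. In Phex the 3 mutants lie together below the controls, while in Ibsp control replicate 3 stands alone at 1.17 CPM and in Tnfrsf11a replicate 2 is the highest of each group.

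Among the early transcription factors, Runx2, the master regulator of the osteoblast lineage, was low and overlapped between groups. It lies on chromosome 17 of GRCm38 from 44495987 to 44814797 and had 64, 40 and 36 counts in controls 1, 2 and 3 (numbers are replicates) and 35, 15 and 33 in mutants 1, 2 and 3. As levels these were 1.19, 0.791 and 0.783 CPM in the controls and 0.676, 0.380 and 1.04 CPM in the mutants. Its highest library was a control and its lowest, mutant replicate 2, was a mutant, but mutant replicate 3 stood above 2 of the controls. Runx2 was at -0.41 ± 0.48 (log2 fold change ± standard error; edgeR adjusted p = 0.999); leaving out mutant replicate 2 gave -0.12, and leaving out mutant replicate 3 gave -0.80. Exons of Runx2 share 519 bases with the antisense gene Runx2os1, and the library kit named in the labels is one that does not keep strand, so fragments of the 2 could not be told apart there.

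Dlx5, a homeobox factor induced by BMP signaling in bone, is on chromosome 6 from 6877805 to 6882085. Its counts were 41, 72 and 27 in the controls and 24, 24 and 5 in the mutants, or 0.765, 1.42 and 0.587 CPM against 0.463, 0.607 and 0.157 CPM. Mutant replicate 2 lay just above control replicate 3, so the groups overlapped by this pair alone. Dlx5 was at -1.16 ± 0.61 (log2 fold change ± standard error; edgeR adjusted p = 0.999; exact permutation test on log2 CPM, two-sided p = 0.2). Without control replicate 2 it was -0.70, and without mutant replicate 2 it was -1.53.

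Sp7 (chromosome 15, 102356606 to 102367182), required for osteoblasts to form, varied more within the groups than between them. Its counts were 34, 11 and 2 in controls 1, 2 and 3 and 23, 13 and 2 in mutants 1, 2 and 3, which gave 0.634, 0.218 and 0.0435 CPM against 0.444, 0.329 and 0.0628 CPM. The exact Poisson 95% interval of control replicate 1 (0.439 to 0.887 CPM) did not reach that of control replicate 3 (0.00527 to 0.157 CPM), so these libraries differed by more than counting error. In both groups the library with the lowest Y-linked RNA, replicate 1, had the most Sp7. The log2 fold change of Sp7 was -0.08 (standard error 0.98), smaller than its standard error, and without control replicate 1 it was 1.10.

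Of the bone matrix and osteocyte genes, Phex showed the clearest separation. Phex, a peptidase of osteocytes whose loss causes phosphate wasting, lies on chromosome X from 157162075 to 157415312. It was read at 2.48, 5.56 and 2.24 CPM in controls 1, 2 and 3 (133, 281 and 103 counts) and at 1.37, 1.27 and 1.63 CPM in mutants 1, 2 and 3 (71, 50 and 52 counts). Every mutant lay below every control, the mutants were close to one another, and control replicate 2 stood far above the other libraries. The group means were 3.43 ± 1.85 and 1.42 ± 0.189 CPM (SD, n = 3). The log2 fold change of Phex was -1.27 (standard error 0.42; unadjusted p = 0.0198, adjusted p = 0.999, edgeR), and the exact permutation test gave p = 0.1 (two-sided), and a design of 3 libraries per group cannot reach a lower one. In DESeq2 the adjusted p of Phex was 0.451. Over the 6 fits that left out 1 library the log2 fold change ran from -1.502 to -0.73, and the unadjusted p of Phex from edgeR was under 0.05 in 3 of them. The value of -0.73 was that without control replicate 2, the library with the most smooth muscle markers. When the smooth muscle marker score entered the model, an alternative added once the data had been seen, the log2 fold change of Phex was -0.64 (unadjusted p = 0.242, edgeR). That score, the mean log2 level of the markers, was lower in every mutant (8.52 to 9.81) than in every control (9.87 to 11.01), so it moved with genotype. Controls 1 and 3 (9.92 and 9.87) and mutants 2 and 3 (9.72 and 9.81) lay close together in score, a set picked once the data had been seen. Among these, Phex was at 2.48 and 2.24 CPM against 1.27 and 1.63 CPM. Whether smooth muscle content accounts for the difference in Phex was not tested. Phex is X-linked, and without the 2 libraries low in Y-linked RNA, also an added alternative, it was at -1.44 (unadjusted p = 0.0470, edgeR), a comparison that leaves the difference in Xist between these controls and mutants in place.

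Ibsp, an acidic matrix protein that nucleates mineral, had the largest fitted change of the 6 tested genes, on 0 to 54 counts per library. The gene (chromosome 5, 104299171 to 104311469) had 17, 14 and 54 counts in the controls and 14, 0 and 2 in the mutants, or 0.317, 0.277 and 1.17 CPM against 0.270, 0 and 0.0628 CPM. The groups were apart only by the gap between 0.277 CPM in control replicate 2 and 0.270 CPM in mutant replicate 1, each of them 14 counts. The 0 in mutant replicate 2 allows up to 0.0759 CPM (3 counts). The log2 fold change of Ibsp was -2.28 (standard error 1.10, unadjusted p = 0.0778, adjusted p = 0.999, edgeR). It was -1.31 without control replicate 3 and -4.22 without mutant replicate 1. Among osteoblast genes outside these 9, Spp1 (osteopontin), singled out after its values were seen, was likewise highest in control replicate 3 (114 CPM). In mutant replicate 2, where Ibsp had 0 counts, Spp1 was at 30.4 CPM, the highest of the mutants, and the groups overlapped.

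Dmp1 (chromosome 5, 104202613 to 104214102), an osteocyte matrix protein encoded beside Ibsp, was not tested. The controls held 9, 2 and 7 counts of Dmp1 and the mutants 8, 0 and 0. The mutant replicate with 8 counts, at 0.154 CPM, was level with controls 1 and 3 (0.168 and 0.152 CPM), and the floor of 3 counts was 0.0759 and 0.0942 CPM in the libraries at 0. Any difference in Dmp1 was not detectable at this depth, and such floors and intervals cover counting error only.

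Bglap, the osteocalcin gene, was near the floor in every library. It lies on chromosome 3 from 88383501 to 88384464 and had 2, 3 and 1 counts in the controls and 4, 4 and 0 in the mutants. Its neighbour Bglap2 is a close copy. Of the 50-base windows of the Bglap transcript, 74.7% occur unchanged in Bglap2, so the authors' counting could divide fragments between them. The highest level of Bglap was 0.0593 CPM in the controls and 0.101 CPM in the mutants, the groups overlapped, and any difference was not detectable at this depth.

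RANK was the one member with a level typical of expressed genes. Tnfrsf11a (chromosome 1, 105780718 to 105847981) had 876, 1715 and 1002 counts in the controls and 460, 1078 and 430 in the mutants. These were 16.3, 33.9 and 21.8 CPM in controls 1, 2 and 3 and 8.88, 27.3 and 13.5 CPM in mutants 1, 2 and 3. The groups overlapped through mutant replicate 2, which lay above 2 of the 3 controls, and in both groups replicate 2 was the highest. Tnfrsf11a was at -0.54 ± 0.44 (log2 fold change ± standard error; edgeR adjusted p = 0.999). It was -0.20 without control replicate 2, -0.23 without mutant replicate 1 and -1.10 without mutant replicate 2. The unadjusted p from edgeR was under 0.05 in 1 of the 6 fits that left out 1 library, that without mutant replicate 2 (0.0231). The fit with a replicate block gave -0.63 ± 0.15 (unadjusted p = 0.00889, adjusted p = 0.901), but the replicate numbers were not taken as pairs.

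Monocyte-derived cells can carry RANK, and their markers ran the other way. Which cells held the Tnfrsf11a RNA in this tissue was not tested. Macrophage markers summed to 576 to 666 CPM in the controls and 728 to 799 CPM in the mutants, higher in every mutant, and 7 of the 8 had a fitted log2 fold change above 0 (4 at an unadjusted p under 0.05, where 1.59% of all genes tested were higher, and 0 at an adjusted one, edgeR). Their part in the levels of Tnfrsf11a and Phex was not tested. Across the 6 libraries Pearson's r of log2 Tnfrsf11a was -0.44 with the summed macrophage markers and 0.85 with the summed smooth muscle markers, and Phex had r of -0.94 and 0.80. Tnfrsf11a also had r of 0.74 with endothelial and -0.77 with cardiac muscle markers. These are descriptions over 6 libraries of 2 groups, and control replicate 2 and mutant replicate 1 are the extremes in smooth muscle markers. In the same added model with the smooth muscle score, which does not overlap between the groups, the direction of Tnfrsf11a turned to a log2 fold change of 0.19 (unadjusted p = 0.616, edgeR). The other 5 tested genes stayed below 0 in that model, where Ibsp was at -4.36 (unadjusted p = 0.0121, adjusted p = 0.850, edgeR), Sp7 at -0.89, Dlx5 at -0.77 and Runx2 at -0.47. In bulk tissue fewer cells of a type and less RNA per cell cannot be told apart.

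**Figure D2:**
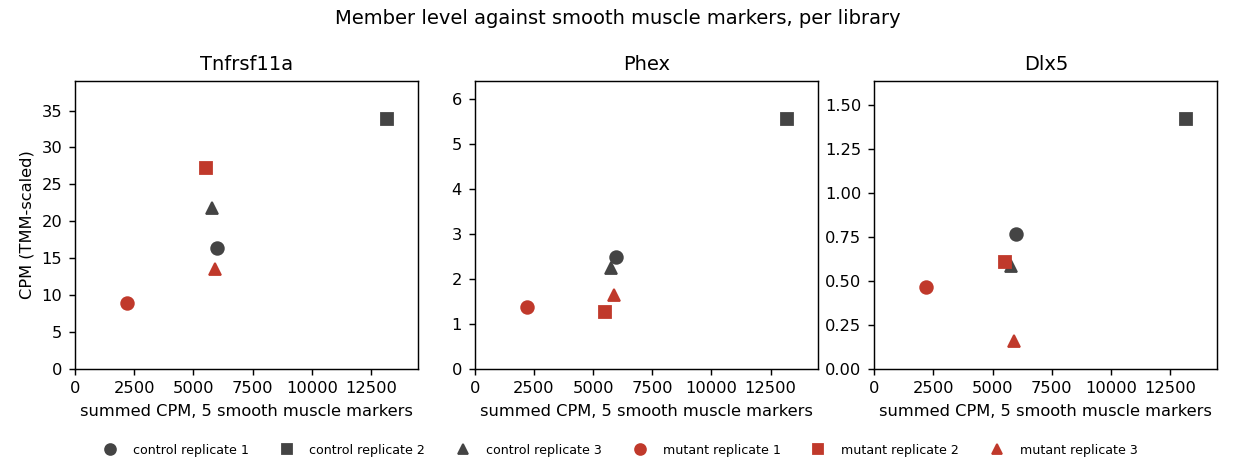
Levels of Tnfrsf11a, Phex and Dlx5 in CPM (vertical axes) against the summed CPM of 5 smooth muscle markers (horizontal axes), 1 point per library. Control replicate 2, at 13172 CPM of smooth muscle markers, is the highest library for all 3 genes, whereas the 4 libraries between 5511 and 5976 CPM differ widely from one another.

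RANKL itself was close to absent. Tnfsf11 (chromosome 14, 78277445 to 78308043) had 12, 5 and 0 counts in the controls and 15, 3 and 6 in the mutants, or 0.224, 0.0989 and 0 CPM against 0.290, 0.0759 and 0.188 CPM. The 0 in control replicate 3 allows up to 0.0652 CPM. The groups overlapped, the gene was not tested with the minimum count, and without that filter its log2 fold change was 0.76 (unadjusted p = 0.535, edgeR). In each group the highest library was replicate 1. T cells are one source of RANKL, and their markers summed to 4.87 to 11.3 CPM in the controls and 10.3 to 16.8 CPM in the mutants, while their part in the Tnfsf11 counts was not tested.

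The decoy receptor Tnfrsf11b (chromosome 15, 54250619 to 54278484), which was known beforehand to be lower in the mutants, had 10.6 ± 0.406 CPM per kilobase in the controls (SD, n = 3), against 0.0481 ± 0.0502 for the ligand. It stood at 30.0, 28.6 and 30.9 CPM in the controls and at 10.9, 19.9 and 16.5 CPM in the mutants, so every mutant lay below every control. The fitted log2 difference of Tnfrsf11b was -0.92 (standard error 0.22; unadjusted p = 0.00365, adjusted p = 0.999, edgeR), and DESeq2 gave an adjusted p of 0.0809. Per fragment of Tnfsf11 there were 134 fragments of Tnfrsf11b in control replicate 1 and 289 in control replicate 2, and 37.7, 262 and 87.5 in mutants 1, 2 and 3. The log2 ratio of Tnfsf11 to Tnfrsf11b (0.5 added to each count) was -7.01, -8.04 and -11.5 in the controls and -5.19, -7.81 and -6.34 in the mutants. Mutant replicate 2 fell between the controls, so the groups overlapped. The difference, mutants minus controls, was 2.39 on the log2 scale (exact permutation test, two-sided p = 0.2, where 0.1 is the smallest possible). It fell to 1.08 without control replicate 3, the library with 0 counts of Tnfsf11. Tnfrsf11b, the lower part of the ratio, was known beforehand to be lower in the mutants, so a difference above 0 was partly built in. The ratio therefore does not show a change in the ligand.

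**Figure D3:**
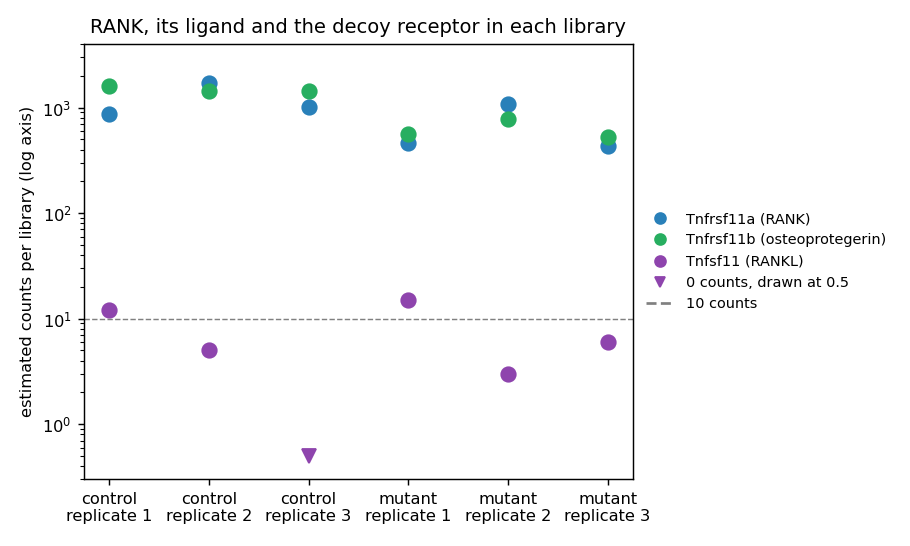
Estimated counts of Tnfrsf11a, Tnfrsf11b and Tnfsf11 in each library on a log axis, with a dashed line at 10 counts and the 0 of control replicate 3 drawn at 0.5. The receptor and the decoy lie between 430 and 1715 counts, and the ligand lies at 15 counts or fewer.

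In the wider RANK pathway no gene passed the test, and 0 of all 15354 genes tested did. Of 32 signaling and osteoclast genes, 30 were tested and 0 had an adjusted p under 0.05, with 16 above and 14 below 0 in log2 fold change and a median of 0.0061. At an unadjusted p under 0.05, 2 were higher, as 1.59% of all genes tested were, and 1 was lower, as 1.86% were. The lower gene was Tnfrsf11b, and the higher ones were Fcer1g, an adaptor that costimulates RANK signaling, at 0.51 ± 0.12 (log2 fold change ± standard error), and Mitf, a factor of osteoclasts and melanocytes, at 0.66 ± 0.26. Fcer1g is expressed by macrophages in general, and the macrophage markers given above were higher in the same libraries. Their part in Fcer1g was not tested. Csf1, the other cytokine that osteoclast precursors need, was among those with the most counts and stood at 168 ± 11.1 CPM in the controls and 172 ± 10.4 CPM in the mutants (SD, n = 3). Jun, a nuclear factor activated by RANK, was at 0.20 ± 0.17 (log2 fold change ± standard error). Nfatc1, both the master factor of osteoclasts and the locus of the Cre, was at 0.23 ± 0.17.

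Of 19 other genes of the osteoblast lineage and of mineralization, 15 were tested and 0 had an adjusted p under 0.05, with 6 above and 9 below 0 and a median log2 fold change of -0.16. At an unadjusted p under 0.05 there were 0 in edgeR, against 3.45% of all genes tested (0% at an adjusted one). Slc20a1, a phosphate transporter, was higher in every mutant, as were 4.04% of all genes tested. It had 17.2 to 21.2 CPM in the controls and 21.6 to 27.96 CPM in the mutants. Its fitted log2 difference was 0.30 (standard error 0.15). The matrix genes Sparc and Col1a2, which valve fibroblasts also express, had the most counts, at -0.26 ± 0.29 and -0.24 ± 0.20 (log2 fold change ± standard error). Sost, an inhibitor of Wnt signaling made by osteocytes, was singled out after its values were seen for its level of 45.3 to 384 CPM. Like Tnfrsf11a, Phex and Dlx5, Sost was highest in control replicate 2, and its fitted log2 difference was -0.80 (standard error 0.63).

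Of 15 partner transcription factors, 14 were tested and 0 had an adjusted p under 0.05, with 8 above and 6 below 0 and a median of 0.06. At an unadjusted p under 0.05 there were again 0 in edgeR, against 3.45% of all genes tested (0% at an adjusted one). Sp3 and Sox9, with the most counts here, were at 0.07 ± 0.11 and 0.22 ± 0.19 (log2 fold change ± standard error).

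**Figure D4:**
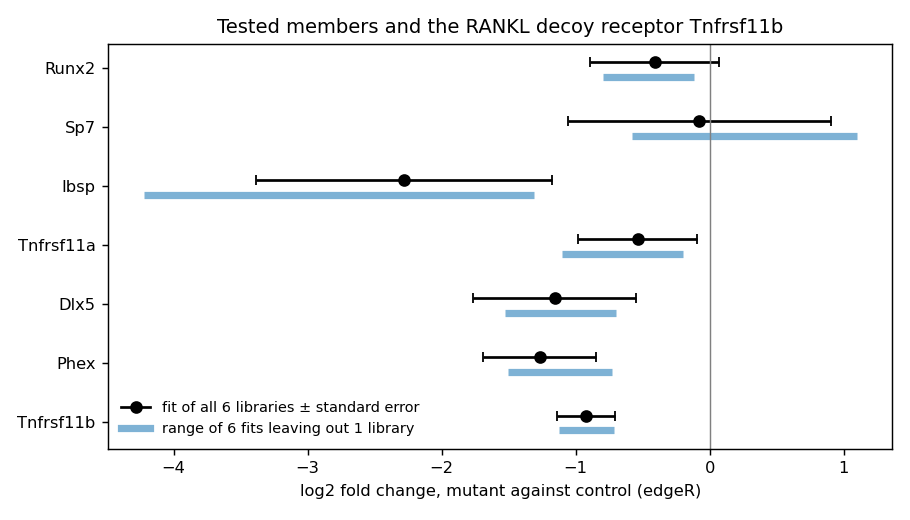
Log2 fold change, mutants against controls (horizontal axis), of the 6 tested genes and of Tnfrsf11b. Points with bars show the edgeR estimate ± standard error and blue bars the range of 6 fits that each leave out 1 library. The range of Sp7 runs from -0.58 to 1.10 across 0, and those of the others stay below 0.

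By the pattern over the 6 libraries, the genes most like Tnfrsf11a were Brd2, Trim3 and Phc2 (Pearson's r of 0.994, 0.994 and 0.990 in log2 CPM), out of 12640 genes with a mean of at least 100 counts. Those most like Phex were Magi1, Mef2c and Syf2 (r of 0.996, 0.994 and 0.990). For the other tested genes the leading ones were Zmym3 for Runx2, Cyp39a1 for Sp7, Lin37 for Ibsp and Nsf for Dlx5. With 6 libraries such values are common, since the third-highest r of a gene had a median of 0.985 over 12641 genes.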

How the data were processed

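Aortic valve libraries, 3 control and 3 mutant, were grouped by their labels. Reads were aligned to mm10 with Bowtie2 (version 2.2.1 with TopHat2 2.0.13 in the submitters' processing notes, where the paper's methods give another version of Bowtie2), and genes were quantified with Cuffdiff 2.1.1. The authors deposited estimated counts per gene, not scaled for library size, which were rounded to whole numbers (1.66% to 1.87% of values per library were not whole). The main test was the quasi-likelihood F test of edgeR 4.0.16 in R 4.3.3 (TMM scaling, no covariates, a minimum of 10 counts in 3 or more libraries, Benjamini-Hochberg adjustment over all 15354 genes). Cuffdiff needs aligned reads and was not run. Positions and exon lengths came from GENCODE M21 (GRCm38, the assembly of mm10), which matched 97.8% of genes, and promoters from RefSeq. The alternatives were DESeq2 1.42.0, limma-voom (limma 3.58.1) with and without sample weights, other scalings and filters, a replicate block and leaving out each library. Single values were compared by exact permutation tests. The script was tested on simulated data. Members and gene lists were chosen with earlier results of these data known. The text names all 9 members, Tnfrsf11b, Acvr1, Nfatc1, Bglap2, from each list the genes of smallest p with groups apart and those of the highest mean count (not all are reported for marker lists), and for likeness the genes of highest r. Symbols not listed were sought under older names, and Trac was not found. Some genes that this rule names are not reported here.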

Additional observations from a re-analysis of the deposited data

How the results depend on the processing

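Over the tested members, 90 of 96 values under the alternatives kept their direction and 0 were called. The 6 that turned direction were Tnfrsf11a with the smooth muscle score (0.19) and Sp7, with 0.26 in limma-voom, 0.31 with sample quality weights, 0.10 with the replicate block, 1.10 without control replicate 1 and 0.36 without mutant replicate 3 (-0.58 to 1.10 over all fits that left out 1 library). The cause was not tested. The replicate block called 0 genes. Same-numbered libraries deviated together with correlations of 0.289, 0.0822 and 0.0313, so the numbers were not taken as pairs. Over all genes, the number called was 0 in edgeR, 26 in DESeq2 and 529 at an unadjusted p under 0.05, which counted 1 member and 3 genes of the RANK-RANKL list. Fits that left out 1 library called 0 genes each. The log2 ratio of Tnfsf11 to Tnfrsf11b differed by 1.08 to 3.31 when 1 library was left out, and by 2.11 and 1.62 with 1 and 5 counts added. With a mean count of at least 100, 2 members could be tested, and without the 2 libraries low in Y-linked RNA, 4 could. Bglap, Dmp1 and Tnfsf11 had too few counts for the test.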
